A study of Mus musculus with 15 samples.

Results

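The 39 genes described here encode subunits of the proteasome and, for some Psmd genes, chaperones of its assembly. They were taken from the RefSeq annotation of the mouse assembly GRCm38, the assembly of mm10, as every protein-coding gene named Psma, Psmb, Psmc or Psmd with a number, and they were 39 of 21883 protein-coding genes. The rule used names only and no measured value. It gave 19 genes of the core particle, of which 8 were alpha (Psma) and 11 beta (Psmb) subunits, 6 ATPase (Psmc) genes and 14 non-ATPase (Psmd) genes.

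The proteasome is the large protease that degrades ubiquitin-tagged proteins in the cytoplasm and nucleus. Its core is a barrel of stacked rings: alpha subunits form the outer rings and gate the entrance, and beta subunits form the inner rings and carry the proteolytic sites. A regulatory particle caps the barrel, with a ring of ATPases that unfolds substrates and non-ATPase subunits that bind ubiquitin, remove it and hold the lid together. Some Psmd genes encode chaperones that help to assemble the ATPase ring. In blood cells, interferon and related signals exchange 3 catalytic beta subunits for Psmb8, Psmb9 and Psmb10, the immunoproteasome subunits, whose products cut peptides for antigen presentation.

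The study mapped proteins on chromatin in HPC-7 cells, a mouse line of early haematopoietic character made from embryonic stem cells. It used CUT&Tag, in which an antibody brings a transposase to its target so that the DNA beside it is cut and tagged. SMC3, a subunit of the DNA-looping cohesin ring, was mapped in HPC-7 cells carrying a short hairpin RNA against YY1 (shYY1) and in control HPC-7 cells. YY1, a zinc-finger transcription factor that binds promoters, and H3K4me3, the histone mark of active promoters, were mapped in control HPC-7 cells. The control libraries were titled wild type, and their descriptions name a luciferase hairpin (shLUC). All groups came from this single cell line, at about 150000 cells a reaction, and each had 3 libraries that the labels call biological replicates. The 3 IgG libraries were not analysed here. The samples included no YY1 library of shYY1 cells, so the depth of the YY1 knockdown cannot be read from them. The first SMC3 library of each arm names Abcam in its description, and the labels leave unsaid which antibody went into the other SMC3 libraries.

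The deposited lists held 2631 to 3213 peaks in the shYY1 SMC3 libraries and 2061 to 4595 peaks in the control SMC3 libraries. The YY1 lists held 3750 to 10699 peaks, and the H3K4me3 lists 16763 to 17895. The third control SMC3 list and the third YY1 list were the shortest of their groups. Between 49 and 99 running numbers were missing from the peak names of each list, so some called peaks were not in the lists analysed here. The lists give positions and summits with no height or read count, so the depth is unknown and the length of a peak is the only measure of its size. All 11 markers of early blood cells that were looked up, Kit, Tal1 and Gata2 among them, had reproducible H3K4me3, and 0 of 10 markers of other cell types did. A gene was given a peak when the peak lay inside it or within 2500 bp of either end, and a gene was counted as reproducible for a target when at least 2 of its 3 libraries had one.

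H3K4me3 marked 38 of the 39 proteasome genes (97.4%), against 53.2% of all protein-coding genes. Each of the 3 libraries held a peak at the same number of proteasome genes, 38. The gene without a peak in any of the 12 lists was Psma8, on chromosome 18, whose product replaces Psma7 in the proteasome of the testis. The remaining 7 alpha, 11 beta, 6 ATPase and 14 non-ATPase genes all had the mark.

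**Figure D1:**
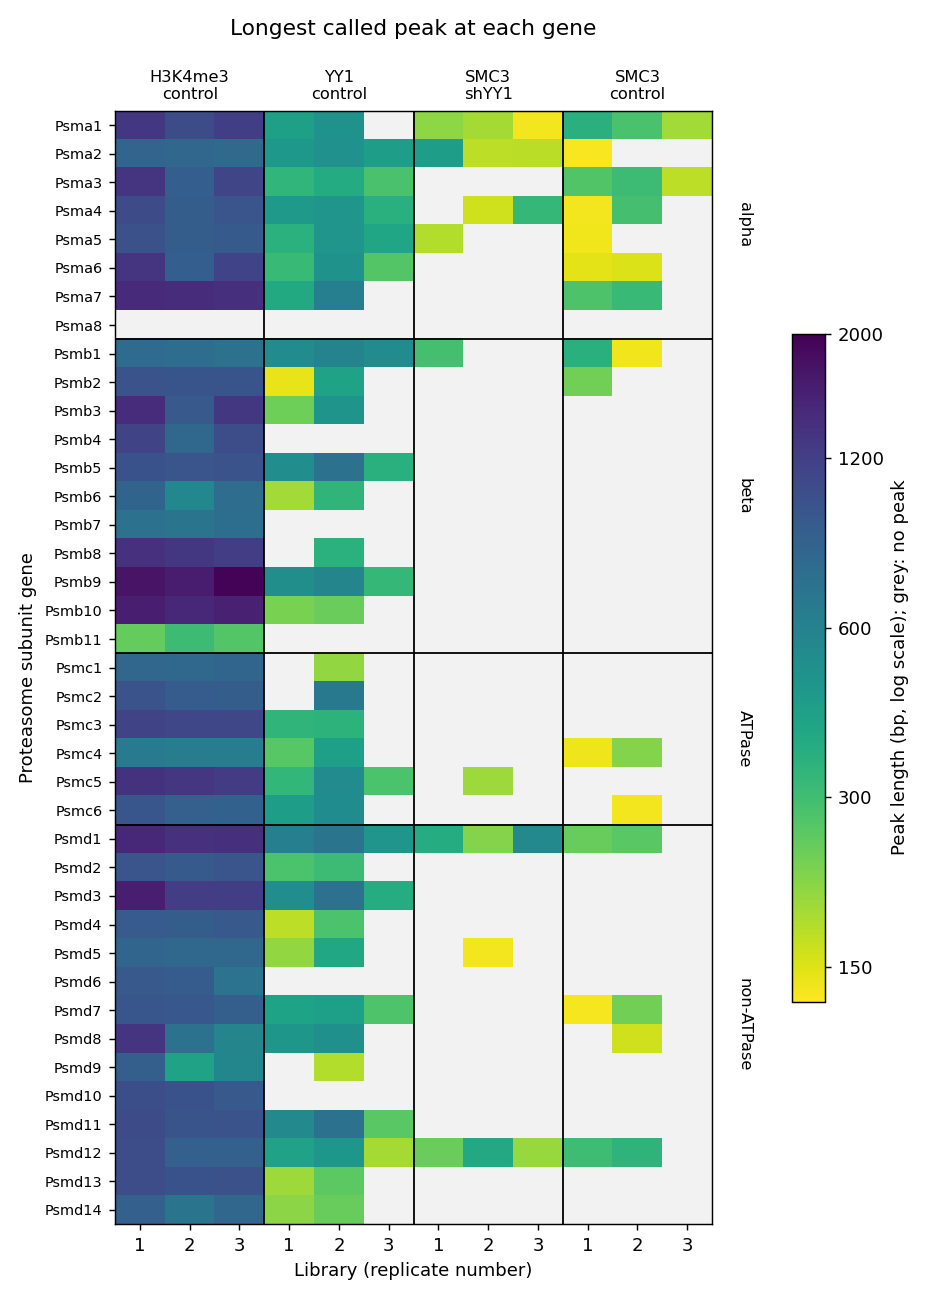
Length of the longest peak (bp, logarithmic colour scale, grey for no peak) at each of the 39 proteasome genes, in rows by subunit class, in each of the 12 libraries, in columns. The H3K4me3 columns are filled for every gene but Psma8. Most SMC3 squares are grey in every subunit class, and the alpha rows have the largest filled share.

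The immunoproteasome genes had wide H3K4me3 peaks, and those of Psmb9 and Psmb10 were the widest of the beta genes in every library. Wide peaks were not particular to them. Outside the beta genes, Psma7 had H3K4me3 peaks of 1433, 1416 and 1374 bp and Psmd1 of 1466, 1349 and 1382 bp, longer than those of Psmb8 in every library. Psmb9, the inducible counterpart of the catalytic subunit Psmb6, had H3K4me3 peaks of 1740, 1632 and 1948 bp. Psmb10, the counterpart of Psmb7, had peaks of 1582, 1483 and 1553 bp, with their summits 1127, 1126 and 1274 bp inside the gene. Psmb8, the counterpart of Psmb5, had peaks of 1348, 1287 and 1220 bp, near the 1417, 928 and 1285 bp of Psmb3, a non-catalytic subunit. The standard subunits that these replace had shorter peaks in every library. Psmb5, of the chymotrypsin-like site, had H3K4me3 peaks of 1009, 976 and 991 bp. Psmb6, of the caspase-like site, had peaks of 829, 559 and 756 bp. Psmb7, of the trypsin-like site, had peaks of 718, 697 and 744 bp. These genes were picked out after their values had been seen, and the marked promoter of Psmb9 is shared with Tap1, a peptide transporter gene whose start lies beside it.

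Psmb11, the beta subunit of the thymus proteasome, was counted for H3K4me3 on the strength of a peak that lay past its far end. That peak was 249, 308 and 270 bp long and began 5303, 5244 and 5398 bp from the start of the gene. No H3K4me3 peak lay within 500 bp of the Psmb11 start. A RefSeq promoter, and with it the strand and the start of transcription, was given for 32 of the 39 genes. Of these, 31 (96.9%) had reproducible H3K4me3 within 500 bp of the start, against 48.4% of all 17491 genes with a given start. Over the proteasome genes with a peak, the median of the longest H3K4me3 peak was 1026, 897 and 950 bp by library, against 1112, 973.5 and 1005 bp over all genes with a peak. The peaks at proteasome genes were thus slightly shorter in the median in every library.

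YY1 was reproducible at 29 of the 39 proteasome genes (74.4%), against 34.6% of all genes. Since 7540 of the 7580 genes with reproducible YY1 also had reproducible H3K4me3, the nearer comparison is with genes that had H3K4me3. There YY1 was found at 29 of 38 proteasome genes (76.3%), against 64.8% of all 11642 marked genes. By library, 29, 33 and 14 proteasome genes had a YY1 peak. These were 74.4%, 84.6% and 35.9% of the proteasome genes, against 35.9%, 40.5% and 18.3% of all genes and 67.1%, 75.1% and 34.3% of the marked genes. The number of proteasome genes with YY1 thus followed the length of the list. Without the first or the second library, when both remaining libraries must hold a peak, 14 genes were called. Of the 39 genes, 14 had YY1 in all 3 libraries, 15 in 2, 4 in 1 and 6 in none. The share with YY1 in all 3 was 35.9%, against 17.9% of all genes, and among genes with H3K4me3 it was 36.8%, against a similar 33.6% of all marked genes.

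**Figure D2:**
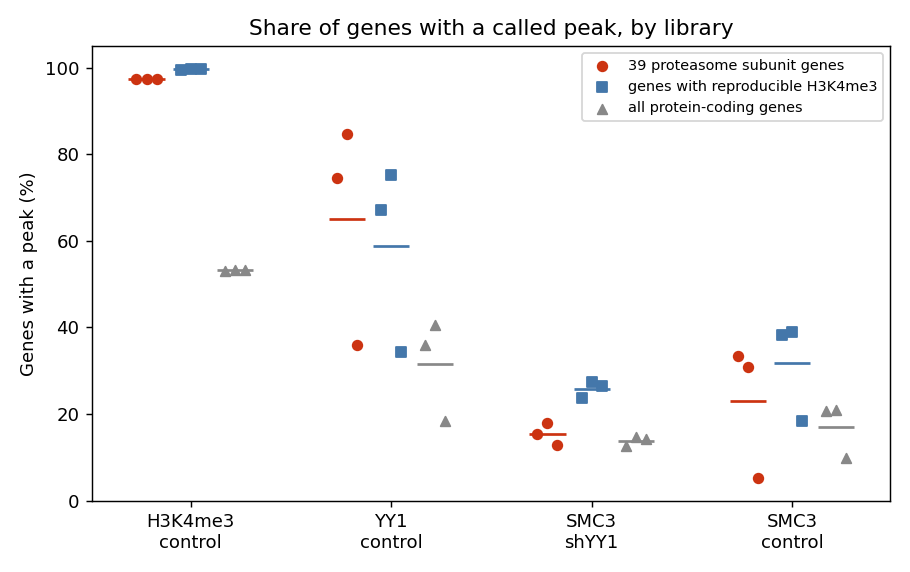
Share of genes with a peak (percent, vertical axis) in each library of each target, for the 39 proteasome genes, for genes with reproducible H3K4me3 and for all protein-coding genes, with lines at the group means. The third YY1 and the third control SMC3 library sit lowest, at 35.9% and 5.13% of the proteasome genes.

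By subunit class, YY1 was reproducible at 7 of 8 alpha genes (87.5%), 7 of 11 beta genes (63.6%), 4 of 6 ATPase genes (66.7%) and 11 of 14 non-ATPase genes (78.6%). The genes with YY1 in every library were Psma2, Psma3, Psma4, Psma5 and Psma6 of the outer ring, Psmb1, Psmb5 and Psmb9 of the inner ring, the ATPase Psmc5, and Psmd1, Psmd3, Psmd7, Psmd11 and Psmd12 of the regulatory particle. Among the longest of their YY1 peaks were those at Psmd1, a large scaffold subunit that docks substrate-binding partners, with 613, 695 and 480 bp. Psmb1, a non-catalytic beta subunit, had YY1 peaks of 535, 586 and 535 bp. Psmb5 had YY1 peaks of 523, 712 and 354 bp.

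The YY1 peaks lay over the starts of transcription. Within 500 bp of its own start, 23 of 32 genes (71.9%) had reproducible YY1, against 29.8% of all genes with a given start and 61.6% of those whose start carried H3K4me3. All YY1 peaks within 500 bp of a start, reproducible or not and counted in each library, were 62 peaks at 26 genes. Their summits had a median position of -11 bp relative to the start, where a negative value is upstream. The H3K4me3 summits had a median of 35.5 bp, downstream of the start. At Psmd1 the YY1 summits of the 3 libraries fell 0, -3 and -3 bp from the start.

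**Figure D3:**
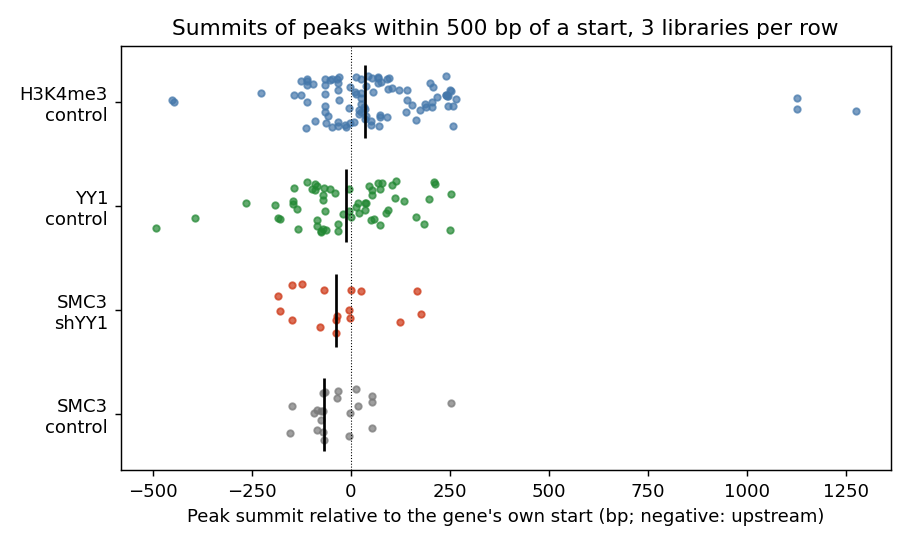
Position of peak summits relative to the gene's own start (bp, horizontal axis, negative is upstream) for peaks within 500 bp of the start of the 32 proteasome genes with a given start, by target, with black bars at the medians. YY1 and SMC3 summits crowd around the start, with medians of -11 bp for YY1, -38 bp for SMC3 in shYY1 cells and -66.5 bp for SMC3 in control cells.

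For some genes the YY1 peak was not at the start or may belong to a neighbour. At Psmb10 the YY1 peaks of 226 and 243 bp lay inside the gene, 1105 and 1124 bp from its start. At Psmb9 the YY1 summits were 116, 38 and 48 bp from the start of Tap1 and -110, -264 and -178 bp from that of Psmb9. The starts of Psma2 and Mrpl32, Psma7 and Ss18l1, Psmc5 and Ftsj3, Psmd13 and Sirt3, and Psmd10 and Atg4a also lay within 500 bp of each other, and a peak there counts for both genes.

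The 10 genes without reproducible YY1 came from every class. Psmb8 had a single YY1 peak of 350 bp in the second library, 4686 bp from its start. The ATPase genes Psmc1 and Psmc2 and the assembly chaperone gene Psmd9 also had YY1 in the second library only, with peaks of 202, 665 and 179 bp. No YY1 peak was listed at Psma8, Psmb4, Psmb7, Psmb11, Psmd6 or Psmd10. Apart from Psma8, and from Psmb11 with its far peak only, these carried H3K4me3 in all libraries. Psmb4, a non-catalytic beta subunit, had H3K4me3 peaks of 1144, 793 and 1045 bp. Psmd6, a lid subunit, had H3K4me3 peaks of 933, 899 and 708 bp, and Psmd10, an assembly chaperone, had 1037, 1000 and 929 bp. With Psmb11, counted for H3K4me3 by its far peak, 5 of 38 proteasome genes with the mark (13.2%) had no listed YY1 peak, against 21.9% of all marked genes.

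The letters of the promoters were searched for the YY1 core motif in 2 spellings, AANATGGC and ATGGCG, on both strands of the 300 bases from 250 before to 50 after each start. The spellings can overlap, and ATGGCG can also be read as a start codon followed by an alanine codon, which was not tested. AANATGGC was in the promoters of 6 of 32 proteasome genes (18.8%), against 10.4% of marked genes and 7.46% of all 17491 genes, and in 6.37% of all 21262 promoters. ATGGCG was in those of 11 of 32 (34.4%), against 18.5% of marked genes and 12.4% of all genes, and in 10.9% of all promoters. At least 1 spelling was present at 13 of the 24 proteasome genes with reproducible YY1 (54.2%) and at 0 of the 8 without it. Among all marked genes the same shares were 25.7% of 6240 with YY1 and 15.2% of 3229 without it.

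Of the 17 sites found in proteasome promoters, 12 lay under a YY1 peak in at least 2 libraries, and 10 of these are shown to set letters beside the YY1 calls. The others, covered in 3 libraries, were a Psmb5 site at positions -176 to -169 from the start and a Psmd1 site whose YY1 summits lay farthest away, 230 to 232 bp. The printed sites are RefSeq sequence of GRCm38.p6, given 5′ to 3′ on the strand of the gene, with the motif in capitals and up to 10 bases on each side.
Psmb5 (chr14:54618068-54618096, minus strand): gcccggagtaAAAATGGCGccgcctccgt
Psmb5 (chr14:54617976-54618004, minus strand): gcccttgctaAACATGGCGctggctagcg
Psmc5 (chr11:106256178-106256206, plus strand): cgagagagggAAGATGGCGcttgatgggc
Psma2 (chr13:14613262-14613289, plus strand): tttccgggtaAAGATGGCagagcgcggt
Psma4 (chr9:54950802-54950829, plus strand): acgcgcgggaGCCATATTcgccgcggat
Psmb6 (chr11:70525384-70525406, plus strand): gtagcagaggAAGATGGCGgccg
Psmc6 (chr14:45329838-45329863, plus strand): gcttctcatcATGGCGgaccctagag
Psmd8 (chr7:29180663-29180691, minus strand): gacttccgttCGCCATTTTgaatgacagc
Psmd12 (chr11:107479390-107479415, plus strand): cctgcccctgCGCCATacgccccgcc
Psmd13 (chr7:140882403-140882428, plus strand): cacttccgtgCGCCATccctgccggt

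Psmb5 held 3 such sites, more than any other proteasome promoter. Counting the start as position 1, with no position 0, the printed sites ran from -91 to -83 and from 2 to 10. All 3 YY1 libraries had a peak over both, and their summits lay 18 to 47 bp from the upstream site and 73 to 139 bp from the other. The Psmc5 site, at positions 4 to 12, and the Psma2 site, at 31 to 38, were also covered in all 3 libraries. At Psma2 the summits lay 13.5 to 84.5 bp from the site. Psmb6 and Psmc6 had sites at positions 38 to 46 and 25 to 30, covered in 2 libraries each, with the nearest summit 4 and 12.5 bp away. The sites of Psma4, Psmd8, Psmd12 and Psmd13 read the motif on the opposite strand of the gene. Of the 13 genes with a site, 10 had one under a YY1 peak in at least 2 libraries. Psmd11 had one covered in 1 library, and the sites of Psmd5 and Psmc4 were under no YY1 peak.

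Of the motifs of other factors, the ETS-family motif had a higher share in proteasome promoters than in marked genes, and the other motifs had shares close to theirs. The antioxidant response element TGACNNNGC, read by the stress factors Nfe2l1 and Nfe2l2, was in the promoters of 5 of 32 proteasome genes (15.6%), against 16.8% of marked genes and 14.8% of all genes, and in 13% of all promoters. CCAAT, the motif of NF-Y, was in 13 of 32 (40.6%), against 43.3% of marked genes and 42.3% of all genes, and in 38.2% of all promoters. CCGGAAG, an ETS-family motif, was in 10 of 32 (31.2%), against 21.0% of marked genes and 12.9% of all genes, and in 11.6% of all promoters. Both strands were read, and a match of these motifs can share letters with a YY1 spelling, as CCGGAAG can with AAGATGGC.

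SMC3 was reproducible at 5 of 39 proteasome genes (12.8%) in shYY1 cells and at 10 (25.6%) in control cells. Without the first or the second control library, when both remaining ones must hold a peak, the control count was 2. Over all genes the shares were 13.2% in shYY1 cells and 17.5% in control cells. Among the 38 proteasome genes with H3K4me3 the shares were 13.2% in shYY1 cells and 26.3% in control cells, against 24.7% and 32.6% of all marked genes. The share of proteasome genes was thus below that of marked genes for SMC3 in both arms, and above it for YY1, with no test of either. No SMC3 peak was listed in any of the 6 libraries at 22 proteasome genes (56.4%), against 73.6% of all genes. Among genes with H3K4me3 the order was the opposite, with 55.3% of the 38 proteasome genes against 51.1% of all marked genes.

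With all listed peaks counted, the share with reproducible SMC3 was highest among the alpha genes in both arms, on few genes and with no test. In shYY1 cells SMC3 was reproducible at 3 of 8 alpha genes (37.5%), 0 of 11 beta genes, 0 of 6 ATPase genes and 2 of 14 non-ATPase genes (14.3%). In control cells it was reproducible at 5 of 8 alpha genes (62.5%), 1 of 11 beta genes (9.09%), 1 of 6 ATPase genes (16.7%) and 3 of 14 non-ATPase genes (21.4%). The shares of all genes and of marked genes were 13.2% and 24.7% in shYY1 cells, and 17.5% and 32.6% in control cells. In no SMC3 library did more beta than alpha genes have a peak. The shYY1 libraries held peaks at 3, 3 and 3 alpha genes and at 1, 0 and 0 beta genes. The control libraries held peaks at 7, 5 and 2 alpha genes and at 2, 1 and 0 beta genes. Of the beta genes, 9 of 11 (81.8%) had no SMC3 peak in any library, Psmb5 with its long YY1 peaks among them. The same held for 73.6% of all genes and 51.1% of marked genes. The alpha lead in shYY1 cells was lost under stricter settings. With peaks of at least the median length of their list, Psmd1 alone was called. With lists cut to an equal number of their longest peaks, only Psmd1 and Psmd12 were. In control cells Psma1, Psma3 and Psma7 stayed called under both settings.

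SMC3 in all 6 libraries was found at 6.84% of all genes and 12.8% of marked genes. The only such proteasome gene was Psma1, an outer-ring subunit gene on chromosome 7 at 114264550 to 114276116, minus strand. Its SMC3 peaks were 206, 188 and 137 bp in shYY1 cells and 351, 285 and 189 bp in control cells, so the lengths of the arms overlapped. The SMC3 summits lay 26, -38 and -35 bp from the start in shYY1 cells and -35, 19 and -32 bp in control cells. YY1 peaks of 423 and 492 bp covered the same place in 2 libraries.

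Psma2, whose product sits beside Psma6 in the outer ring, had SMC3 peaks of 439, 170 and 172 bp in shYY1 cells and a single peak of 133 bp, in the first library, in control cells. SMC3 in at least 2 more shYY1 than control libraries was found at 0.292% of all genes and 0.49% of marked genes. Psma2 was the only such proteasome gene. Its start on chromosome 13, at 14613242, lies within 500 bp of that of Mrpl32, a mitochondrial ribosome gene. The SMC3 summits lay 177, -179 and -147 bp from the Psma2 start in shYY1 cells and -66 bp in control cells. From the Mrpl32 start they lay 382, 26 and 58 bp away in shYY1 cells and 139 bp in control cells. The peaks of the second and the third shYY1 library and of the control library did not reach the Psma2 start, so whether they belong to Psma2 or to Mrpl32 cannot be told apart. YY1 peaks of 466, 500 and 433 bp lay there in all 3 libraries.

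Psma3, on chromosome 12, was the reverse case. It had no SMC3 peak in shYY1 cells and SMC3 peaks of 272, 308 and 171 bp in control cells, with summits 54, 53 and 53 bp from its RefSeq start at 70974623. SMC3 in 3 control and 0 shYY1 libraries was found at 0.178% of all genes and 0.326% of marked genes. Psma3 was the only such proteasome gene. The YY1 peaks at that start were 330, 373 and 285 bp long, with summits at 52, 54 and 212 bp. The second of them covered the start, and the others began 2 and 31 bp downstream of it. Psma3 was also 1 of only 2 proteasome genes with SMC3 in the third, shortest control list, and the other was Psma1. The Psma3 start at 70974623 is that of its promoter entry and lies inside the annotated gene, which begins at 70969283. Beside that end lay another H3K4me3 region, at 70968043 to 70969169 in all 3 libraries, with a YY1 peak in the second YY1 library only.

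Upstream sequences of these 3 genes are shown because they carried the most and the most opposed SMC3 calls, and that of Psmd6 because it had H3K4me3 without YY1 or SMC3. Each is the 120 bases before the RefSeq start in GRCm38.p6, 5′ to 3′ on the strand of the gene, with any match to the 5 searched motifs in capitals.
Psma1 (chr7:114276117-114276236, minus strand): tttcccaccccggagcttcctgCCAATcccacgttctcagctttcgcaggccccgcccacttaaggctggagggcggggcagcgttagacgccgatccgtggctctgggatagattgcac
Psma2 (chr13:14613122-14613241, plus strand): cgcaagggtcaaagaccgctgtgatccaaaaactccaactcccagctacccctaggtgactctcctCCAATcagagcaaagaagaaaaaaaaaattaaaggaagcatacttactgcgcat
Psma3 (chr12:70974503-70974622, plus strand): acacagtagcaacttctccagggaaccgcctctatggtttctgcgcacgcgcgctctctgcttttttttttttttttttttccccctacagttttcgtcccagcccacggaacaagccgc
Psmd6 (chr14:14120946-14121065, minus strand): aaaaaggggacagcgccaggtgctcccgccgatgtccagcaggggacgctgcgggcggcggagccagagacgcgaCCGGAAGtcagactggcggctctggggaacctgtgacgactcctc
Psma1 and Psma2 each had a CCAAT, Psmd6 had a CCGGAAG, and Psma3 had none of the searched motifs in these 120 bases but had an unbroken run of T letters. Outside the printed bases, Psma3 had CCAAT on 1 or the other strand at positions -139, 14 and 31 from the start. The matches at 14 and 31 each lay under a YY1 peak in 2 libraries.

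Psma4 had SMC3 peaks of 158 and 325 bp in the second and the third shYY1 libraries and of 137 and 292 bp in the first and second control libraries. Their summits were at -183 and -149 bp in shYY1 cells and at -152 and -149 bp in control cells. Psma6 had no SMC3 peak in shYY1 cells and peaks of 145 and 150 bp in the first and second control libraries. Psma7 likewise had none in shYY1 cells and peaks of 280 and 314 bp in the first and second control libraries, with summits at -71 and -70 bp. The third control library, with the shortest list, held none of these 3 genes. Psma5 had a peak of 179 bp in the first shYY1 library and of 138 bp in the first control library, and was reproducible in neither arm.

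Psmb1 was the only beta gene with reproducible SMC3. It had an SMC3 peak of 292 bp in the first shYY1 library and peaks of 353 and 138 bp in the first and second control libraries. The ATPase gene Psmc4 had no SMC3 peak in shYY1 cells and peaks of 140 and 215 bp in the first and second control libraries, with both summits 85 bp upstream of the start. Its YY1 summits lay at the same base in both YY1 libraries that had a peak.

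Among the non-ATPase genes, Psmd1 had SMC3 peaks of 367, 217 and 555 bp in shYY1 cells and of 246 and 262 bp in the first and second control libraries. Every SMC3 summit at Psmd1 fell within 3 bp of the start, at 0, -3 and -1 bp in shYY1 cells and at -1 and -3 bp in control cells. Psmd12, a lid subunit, had SMC3 peaks of 243, 386 and 199 bp in shYY1 cells and of 305 and 337 bp in the first and second control libraries. Psmd7, the lid partner of the deubiquitinase Psmd14, had no SMC3 peak in shYY1 cells and peaks of 135 and 232 bp in the first and second control libraries. Psmd1 and Psmd12 thus had SMC3 in 1 more library of shYY1 than of control cells, and Psmd7 in 2 fewer.

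Single SMC3 peaks were listed at 5 further genes. In shYY1 cells these were a peak of 193 bp at Psmc5 and of 137 bp at Psmd5, both in the second library. In control cells they were a peak of 233 bp at Psmb2 in the first library and of 137 bp at Psmc6 and 158 bp at Psmd8 in the second. None of these was seen again in another library.

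The study's comparison was SMC3 in shYY1 against control cells. Reproducible SMC3 was shared by both arms at Psma1, Psma4, Psmd1 and Psmd12. It was called in shYY1 cells alone at Psma2, and in control cells alone at 6 genes, Psma3, Psma6, Psma7, Psmb1, Psmc4 and Psmd7. The genes shared by both arms were 10.3% of the proteasome genes, against 12.3% of all genes and 23.1% of marked genes. Those in shYY1 cells alone were 2.56%, against 0.891% of all genes and 1.59% of marked genes. Those in control cells alone were 15.4%, against 5.14% of all genes and 9.52% of marked genes. At least 2 more control than shYY1 libraries held SMC3 at 5 proteasome genes (12.8%), which were Psma3, Psma6, Psma7, Psmc4 and Psmd7, against 2.71% of all genes. Among genes with H3K4me3 the shares were 13.2% of proteasome genes and 5.0% of all marked genes. Of the 17 genes with SMC3 in any library, 5 had it in more shYY1 libraries, 9 in more control libraries and 3 in equal numbers. Over all genes, 913 had it in more shYY1 and 2476 in more control libraries, so the direction was that of the whole lists.

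Over libraries, the difference did not exceed the spread between replicates. SMC3 peaks lay at 6, 7 and 5 proteasome genes in shYY1 cells (15.4%, 17.9% and 12.8%) and at 13, 12 and 2 in control cells (33.3%, 30.8% and 5.13%). The groups overlapped, since the third control library was below all shYY1 libraries. The mean share was 15.4% ± 2.56 in shYY1 cells and 23.1% ± 15.6 in control cells (SD, n = 3 each), a difference of -7.69 percentage points with an exact two-sided permutation p = 0.4. With 3 libraries against 3 the smallest p this test can give is 0.1. Without the third control library the difference was -16.7 points, with 15.4% in shYY1 cells and 32.1% in control cells (exact permutation p = 0.1, the smallest possible). Without the first control library it was -2.56 points, and without the second -3.85 points.

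Set against all genes in the same library, the means of the arms differed by less than the spread between libraries. The share of proteasome genes with SMC3 was divided by the share of all genes with SMC3, and the log2 of this ratio was 0.28, 0.29 and -0.15 in the shYY1 libraries and 0.70, 0.56 and -0.94 in the control libraries. Its mean was 0.14 ± 0.25 in shYY1 cells and 0.10 ± 0.91 in control cells (SD, n = 3 each), a difference of 0.03 with an exact two-sided permutation p = 1. Without the third control library the difference was -0.49, with all shYY1 libraries below both remaining control libraries (exact permutation p = 0.1, the smallest possible). Without the first or the second shYY1 library it was -0.03 and -0.04, and without the first or the second control library 0.33 and 0.26. The sign therefore changed with the library left out, most with the third control list, and whether the length of that list reflects depth was not tested.

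Every reproducible SMC3 region at a proteasome gene in control cells overlapped a reproducible YY1 region, at 10 of 10 genes, both with 1 shared bp and with 50% of the shorter region. By gene, with no overlap required, 97.9% of all 3824 genes with reproducible control SMC3 also had reproducible YY1. By that looser measure 10 of 10 is close to the general case. Overlap of regions was not counted over all genes. The distance from each SMC3 summit to the nearest YY1 summit varied. Within 10 bp of a YY1 summit of any library lay 10 of 18 SMC3 summits at proteasome genes in shYY1 cells (55.6%, median distance 7 bp) and 20 of 27 in control cells (74.1%, median 3 bp). Over all SMC3 peaks the share within 10 bp was 48.8%, 49.4% and 49.5% in the shYY1 libraries and 50.6%, 48.5% and 50.8% in the control libraries. By library the share at proteasome genes was 16.7%, 71.4% and 80.0% in shYY1 cells, on 6, 7 and 5 peaks, and 76.9%, 66.7% and 100% in control cells, on 13, 12 and 2 peaks. Peaks of the same gene recur in several libraries, so these peaks are not independent, and the distance was measured after the other values had been seen. Whether summits at the same base also occur with IgG was not tested.

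The share with SMC3 was highest where YY1 was found in the most libraries. Of the 14 proteasome genes with YY1 in 3 libraries, 4 (28.6%) had reproducible SMC3 in shYY1 cells and 7 (50%) in control cells. Over all 3924 genes with YY1 in 3 libraries the shares were 57.6% in shYY1 cells and 69.7% in control cells. Of the 15 with YY1 in 2 libraries, 1 (6.67%) had SMC3 in shYY1 cells and 3 (20%) in control cells, against 16.4% and 27.6% of all 3656 such genes. None of the 4 genes with YY1 in 1 library and of the 6 with none had reproducible SMC3 in either arm. At a matched number of YY1 libraries, the SMC3 share of proteasome genes was thus below that of all genes in both arms, on 14 and 15 genes and with no test. In all, 18 proteasome genes (46.2%) had reproducible YY1 and reproducible SMC3 in neither arm, against 16.7% of all genes. Among genes with H3K4me3 the shares were 47.4% of proteasome genes and 31.2% of all marked genes.

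**Figure D4:**
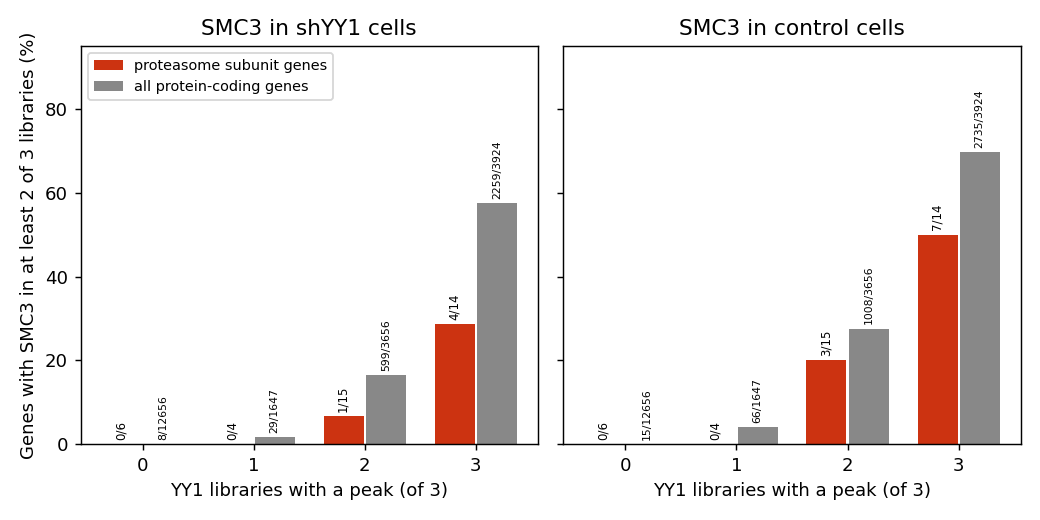
Share of genes with reproducible SMC3 (percent, bars from 0) by the number of YY1 libraries with a peak at the gene, for the 39 proteasome genes and for all protein-coding genes, with shYY1 cells on the left and control cells on the right. At 3 YY1 libraries the proteasome bars stand at 28.6% and 50%, below the bars of all genes at 57.6% and 69.7%.

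The SMC3 peaks at proteasome genes were mostly shorter in the median than those at all genes, on few genes. The medians rest on 6, 7 and 5 proteasome genes in the shYY1 libraries and on 13, 12 and 2 in the control libraries. The median of the longest SMC3 peak was 267.5, 188 and 199 bp in the shYY1 libraries, against 265, 241 and 245 bp over all genes with SMC3. In the control libraries it was 233, 247 and 180 bp, against 261, 262 and 255 bp. For YY1 the medians were 350, 479 and 338 bp, against 359, 439 and 338 bp over all genes with YY1. In 5 of 6 SMC3 libraries the proteasome value was the lower, and the first shYY1 library was the exception.

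Other genes of the pathway were taken from a list of 21, of which 20 were found in the annotation and Paaf1 was not. All 20 had reproducible H3K4me3, and 17 (85%) had reproducible YY1, against the 53.2% of all genes with H3K4me3 and the 64.8% of marked genes with YY1 given above. The exceptions for YY1 were Psmf1, which encodes a proteasome inhibitor, the assembly chaperone gene Psmg3, and Ddi2, the protease that activates Nfe2l1. SMC3 was reproducible at 4 of the 20 (20%) in shYY1 cells and at 6 (30%) in control cells. On 20 genes these shares were close to the 24.7% and 32.6% of marked genes in those arms. In all 6 SMC3 libraries a peak was listed at Adrm1, a ubiquitin receptor, and at Usp14 and Uchl5, deubiquitinases bound to the proteasome. Psme2, an activator cap subunit induced by interferon, had SMC3 in 2 libraries of each arm. Psmg1, an assembly chaperone gene, had SMC3 in 1 shYY1 and 3 control libraries. Nfe2l1, the transcription factor that raises proteasome genes under stress, had SMC3 in 1 shYY1 and 2 control libraries.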

How the data were processed

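For each of 12 libraries the authors deposited a list of peaks in base-pair positions, with no heights, scores or counts. The submitters' processing notes name MACS2 2.2.9.1, Bowtie2 2.5.1, cutadapt 4.5, Picard 3.1.1 and mm10, while settings, thresholds and any use of IgG were not given in the sources used here. Replicates were called separately, per the files.

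Starts were read as counted from 0 and turned into positions counted from 1. Genes and promoters came from RefSeq tables of GRCm38.p6; 7 proteasome genes had no promoter entry. Peaks were joined when they shared 1 bp. Arms were compared by an exact two-sided permutation test over 20 assignments. Python 3.11.15, numpy 2.4.6 and pandas 2.3.3 were used, and the calculations were tested on simulated data.

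The members and lists were chosen with earlier results of these data known. The rule for named genes gave values in every library for genes with reproducible SMC3 in either arm, a difference of at least 2 libraries between arms, or no reproducible H3K4me3 or YY1. The alternatives were the number of libraries, the window, summits, overlap, peak length, list length, each library left out, both libraries naming Abcam left out, and a replicate block. Summit distances and calls at the gene's own start were added after seeing the data. One gene of the pathway list is not reported here.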

Additional observations from a re-analysis of the deposited data

How the results depend on the processing

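Of 39 proteasome genes, 33 to 38 kept reproducible H3K4me3 under every alternative run. YY1, at 29 genes, was called at 14 when all 3 libraries were required, at 17 with peaks of at least the median length of their list, and at 14 to 29 with each library left out, where both remaining libraries must hold a peak. SMC3 in shYY1 cells, at 5 genes, was called at 9 with any 1 library, 1 with the longer peaks and 2 with lists cut to an equal number of their longest peaks. SMC3 in control cells, at 10 genes, was called at 2 in all 3 libraries, 5 with the longer peaks, 4 with equal lists (Psma1, Psma3, Psma7 and Psmd12), 2 without both libraries naming Abcam, and 2 to 10 with each library left out. Control SMC3 regions overlapping YY1, at 10 genes, were 1 in all 3 libraries, 5 with the longer peaks, 4 with equal lists, 2 without the libraries naming Abcam, and 2 to 10 with each library left out.

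The difference in share between shYY1 and control cells was below 0 in all 13 alternatives, from -16.7 to -2.56 points. These include the replicate block, which changes the p-value only and could not move the difference. The window of 1000 bp and the summit setting also returned the main value of -7.69 points. With only gene ends counted it was -3.42, with 15.4% in shYY1 cells and 18.8% in control cells. The log2 ratio difference of 0.03 turned to -0.30 with equal lists, was 0.53 with only gene ends counted, and ran from -0.49 to 0.33 with each library left out; with the longer peaks it could not be computed, since a control library held no proteasome gene. A stricter peak score was not run. The calls of same-numbered libraries did not deviate together (correlations of -0.0561, 0.042 and -0.0604). These correlations cannot show whether libraries of the same number were prepared together. The replicate block gave -7.69 points (exact sign-flip permutation p = 0.5, smallest possible 0.25). The cause of these changes was not tested. With 3 libraries an arm, no difference could pass 0.05.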
